A study of Mus musculus with 5 samples.

Results

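Spp1 is 1 of the 28001 features counted in 5 single-cell libraries of mouse hindlimb muscle, and it was chosen for its high level after injury. It encodes osteopontin, a secreted, phosphorylated glycoprotein. Osteopontin holds an RGD motif that integrins bind, and it is also a ligand of CD44. Proteases cut it and transglutaminase cross-links it. In bone it is a matrix protein of mineralised tissue, and in injured muscle macrophages are its well-known source.

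The libraries hold mesenchymal progenitors, the connective-tissue stem cells that lie between muscle fibres. There was 1 library each for the quiescent state and for days 1, 2, 4 and 14 after notexin, a snake venom phospholipase that destroys muscle fibres. All mice were C57BL/6J of the genotype Hic1CreERT2/CreERT2;Rosa26LSLtdTomato/+, in which tamoxifen turns on the red protein tdTomato in cells that express the transcriptional repressor Hic1 and in all cells that come from them, so only cells with Hic1 at the time of the drug are marked. All were given 2.5 mg tamoxifen in 100 uL oil on each of 5 days at 8 weeks of age, with 10 days of washout, so the quiescent mice carry the same alleles and drug. The number of mice in a library is not given in the labels. With 1 library at each time, no test was possible, no p-value is given, and every interval below covers counting error only.

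Of 17213 barcodes, 17085 passed a filter of at least 500 genes and at most 10% mitochondrial UMIs (unique molecular identifiers, 1 for each captured transcript). Kept cells numbered 2138 to 4816 in a library, with a median of 3771.5 to 10765 UMIs per cell. Cells were put in 3 classes by UMIs of marker genes. Tenocytes, the fibroblasts of tendon, had at least 5 UMIs of Tnmd, Fmod, Kera and Chad (1394 cells). Mural cells, the pericytes and smooth muscle of vessels, had at least 5 UMIs of Rgs5, Kcnj8, Abcc9 and Higd1b (608 cells). The remaining 15077 cells are called rest cells, and 6 cells past both gates were kept apart. Rest cells carried transcripts of mesenchymal progenitors: Dcn was detected in 99.4% to 100.0% of them in each library and Pdgfra in 61.1% to 82.1%. Both were also present in single tenocytes and mural cells, so they do not set rest cells apart. Across the libraries 154 barcodes occurred in more than 1 library, and in 0 of these pairs did both cells hold a Spp1 UMI.

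The gene lies on mouse chromosome 5 at positions 104435118 to 104441050 of GRCm38, on the plus strand, in GENCODE M21, which gives it 7 transcripts and 8 exons in the longest. An unproven gene model of that annotation, Gm42793, overlaps its first part on the same strand and is not in the gene list of the files, so its reads cannot be told apart from those of Spp1. The 250 bases before the RefSeq start are shown because factors of the RUNX and ETS families are known regulators of this promoter and Runx1 and Runx2 were measured here. Capitals mark, from left to right, the RUNX letters (ACCACA), the ETS letters (GGAAGT) and a CCAAT box on the other strand (ATTGG), at chr5:104434861-104435110 of GRCm38.p6, plus strand, from RefSeq.
Spp1 promoter: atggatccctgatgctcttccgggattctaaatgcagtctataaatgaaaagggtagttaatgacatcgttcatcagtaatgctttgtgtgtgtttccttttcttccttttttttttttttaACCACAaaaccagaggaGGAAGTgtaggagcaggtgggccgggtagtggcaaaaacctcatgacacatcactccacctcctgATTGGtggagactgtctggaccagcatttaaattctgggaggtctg

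Each of these motifs was searched on both strands, with positions counted back from the RefSeq start. The RUNX letters TGTGGT (reverse ACCACA) begin at -128 and occur in 14.0% of 32851 promoters cut to the same length. The ETS letters GGAAGT (reverse ACTTCC) begin at -111 and occur in 19.7% of them. The CCAAT letters (reverse ATTGG) begin at -46 and occur in 33.8%. A TATAAA (reverse TTTATA) lies far from the start at -211, with a match in 12.4% of promoters, and an E-box CANNTG lies at -98, with a match in 66.2%. The AP-1 letters TGANTCA have no match in this window and are in 6.75% of promoters. These matches describe the sequence and say nothing of binding.

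Spp1 was almost absent from quiescent rest cells, appeared at day 1, and was highest in the day 4 library. The level, as CPM (counts scaled to a common total) of the summed cells, was 0.274 CPM in quiescent rest cells (2 UMIs, interval 0.0331 to 0.988). It was 22.9 CPM at day 1 (979 UMIs, 21.5 to 24.4), and 249.97 CPM at day 2 (7910 UMIs, 244.5 to 255.5). Day 4 rest cells held 2167 CPM (65125 UMIs, 2150 to 2183), and day 14 rest cells 16.6 CPM (207 UMIs, 14.4 to 19.1). The day 14 level rested on 1 cell with 174 of the 207 UMIs and was 2.65 CPM without it. Day 4 was therefore above every other library, and day 14 lay between the quiescent library and day 1 with or without that cell.

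The day 4 rest cells held 8.67 times the Spp1 level of day 2 (interval 8.47 to 8.87), and day 2 held 10.9 times that of day 1 (10.2 to 11.7). With cells thinned to 2500 UMIs day 4 stood at 1141 CPM and day 2 at 218 CPM, a ratio of 5.24, and without the cells of highest UMI count the ratio was 5.14. Against the quiescent library the day 4 ratio was 7918, with an interval of 2192 to 65381 because the quiescent count was 2. With marker gates of 10 UMIs, which leave 4.89 CPM in quiescent rest cells, it was 447. Day 14 stood at 0.00767 of the day 4 level. Each of days 1, 2 and 4 was past the limits used throughout for counting a gene as higher, a ratio of at least 2 with at least 20 CPM in the higher set. Of genes measured at 20 CPM or more in either library, those limits counted 15.5% of 6045 as higher at day 1. At day 2 it was 11.3% of 6074, at day 4 6.34% of 5945 and at day 14 1.04% of 5757. Shares of all genes given below are likewise of the genes measured at 20 CPM or more in either set. Spp1 was chosen for these values, so they describe it.

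**Figure D1:**
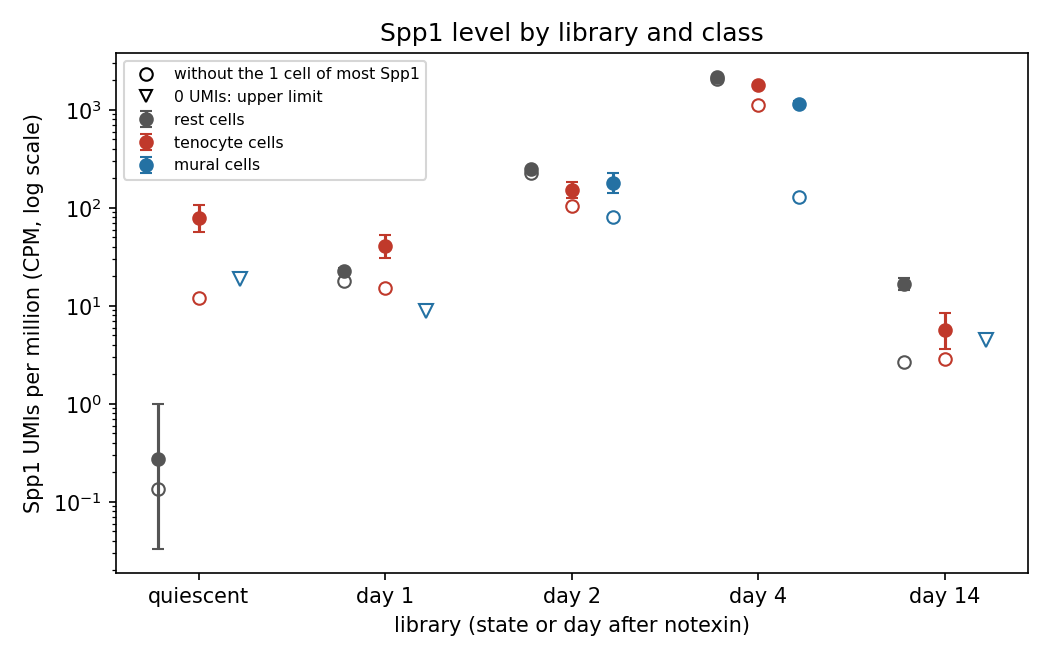
Spp1 in CPM (log axis) in rest, tenocyte and mural cells of each library, with exact 95% counting intervals. Open circles leave out the 1 cell of most Spp1 and triangles give the upper limit where the count was 0. All classes are highest at day 4, and 1 cell carries most of the day 4 mural, the quiescent tenocyte and the day 14 rest levels.

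Tenocytes held 79.1, 40.8, 153, 1799 and 5.68 CPM of Spp1 in the quiescent, day 1, day 2, day 4 and day 14 libraries. In the quiescent library 34 of the 40 tenocyte UMIs came from 1 of 126 cells, and without it the level was 11.96 CPM. At day 4 a tenocyte with 1063 of 2712 UMIs was the most deeply sequenced of its class, and the level without it was 1119 CPM. So the class peaked at day 4 with or without that cell, and its quiescent level rested on 1 cell.

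Mural cells had 0 Spp1 UMIs in the quiescent, day 1 and day 14 libraries. With 3 counts as the limit of a zero, these allow up to 15.3, 7.23 and 3.67 CPM. At day 2 they had 180 CPM (75 UMIs) and at day 4 1147 CPM (688 UMIs). Of the day 4 mural UMIs, 612 were in 1 cell, and the level without it was 130 CPM. That cell held 33 UMIs of the mural markers beside 52 of Dcn and 6 of Pdgfra, and its depth was at percentile 97.4 of its class. Whether it held 2 cells was not tested.

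At day 4 the rest cells had 1.20 times the tenocyte level (interval 1.16 to 1.25) and 1.89 times the mural level (1.75 to 2.04). Without the 1 cell of most Spp1 in each class these ratios were 1.85 and 16.0, and without the cells of highest UMI count 1.35 and 1.17. The ratio to tenocytes had no fixed direction: with the gates at 3 marker UMIs it was 0.658, and with the gates at 10 it was 4.13. Over the 15 levels the order began with day 4 rest, tenocyte and mural cells, then day 2 rest, mural and tenocyte cells, then quiescent tenocytes, day 1 tenocytes and day 1 rest cells. The intervals of neighbours overlapped between day 2 mural and tenocyte cells and among quiescent rest cells and the 3 mural levels at 0. Left without its top cell, the quiescent tenocyte level would stand below the day 1 and day 14 rest levels with all their cells. The third place of day 4 mural cells also rested on 1 cell. Without it their level, 130 CPM, would stand below the day 2 rest, mural and tenocyte levels with all their cells.

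Spp1 UMIs were very unequally spread over cells. A UMI of Spp1 was detected in 0.105%, 1.81%, 11.5%, 22.8% and 0.578% of rest cells in the quiescent, day 1, day 2, day 4 and day 14 libraries. After thinning every cell to 2500 UMIs, which left out 0 to 398 shallower rest cells in a library, these shares were 0.0662%, 1.01%, 6.36%, 14.2% and 0.346%. The order of libraries was the same at equal depth. The most Spp1 UMIs in 1 rest cell were 1, 208, 786, 2795 and 174.

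In the day 4 rest cells, 2943 of 3810 had no Spp1 UMI, 567 had 1 to 4, 152 had 5 to 49 and 148 had 50 or more. The 85 cells with at least 200 UMIs made up 2.23% of the class and held 85.04% of its Spp1 UMIs. The variance of the count over its mean was 946, where random counting of equal cells gives a value near that of the quiescent library, 0.999. In the cell of most Spp1, 11.96% of all its UMIs were Spp1. Spp1 was thus a major transcript of a small share of cells and absent or at a few UMIs in the others.

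The step between days 1 and 2 and the step between days 2 and 4 differed in form. Cells with at least 5 Spp1 UMIs were 0 of 1900 in the quiescent library, which with 3 counts as the limit of a zero allows a share of up to 0.158%. They were 0.661% at day 1 (30 cells, interval 0.447 to 0.943) and 5.73% at day 2 (138 cells, 4.84 to 6.74). The day 4 share was 7.87% (300 cells, 7.04 to 8.78) and the day 14 share 0.124% (3 cells, 0.0255 to 0.361). Day 2 had 8.67 times the share of day 1, while the Spp1 level inside these cells, 2987 CPM at day 2 and 2586 CPM at day 1, differed 1.16-fold. Day 4 had 1.37 times the share of day 2, while the level inside them, 15650 CPM at day 4 and 2987 CPM at day 2, differed 5.24-fold.

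Between days 1 and 2, then, the share of cells past 5 UMIs differed far more than their pooled level. Between days 2 and 4 the level inside such cells differed far more than their share. The cut at 5 UMIs bounds these levels from below, and the day 1 level rests on 30 cells. Median Spp1 counts in these cells were 12, 20 and 46.5 UMIs at days 1, 2 and 4. Rest cells were shallower at day 4 (median 7071.5 UMIs) than at day 2 (11165). At 2500 UMIs per cell, cells with at least 2 Spp1 UMIs were 0.514% at day 1, 4.32% at day 2 and 7.31% at day 4. Equal depth thus gave the same order of shares.

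**Figure D2:**
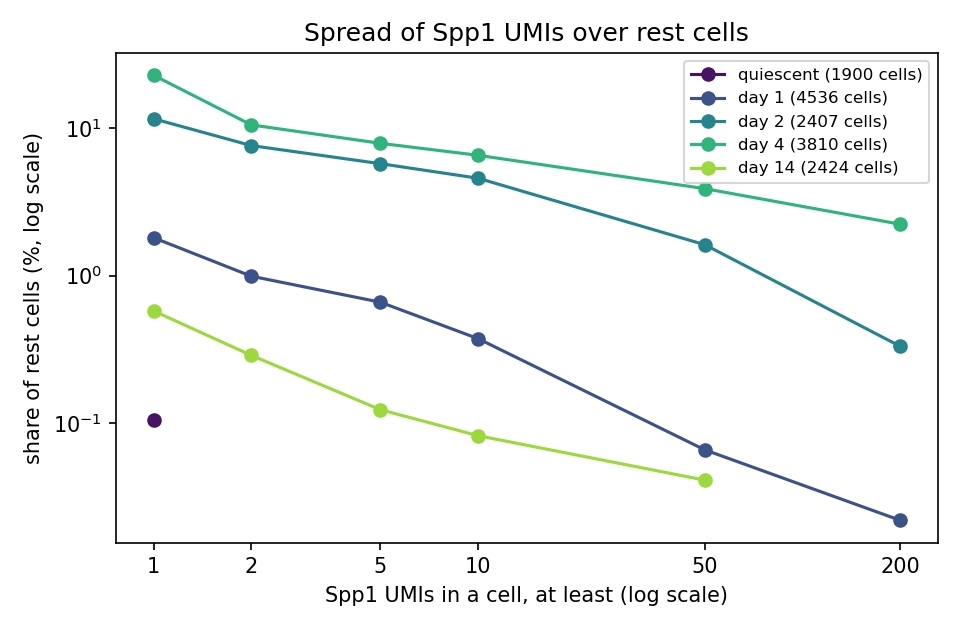
Share of rest cells (percent, log axis) that held at least the number of Spp1 UMIs on the x axis (log axis), for each library. Day 4 and day 2 lie close at 5 UMIs (7.87% and 5.73%) and part at 200 UMIs (2.23% and 0.332%).

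Free RNA in the droplets can give a few UMIs to cells that do not make a transcript, and it gives them alike to all classes of a library. At day 4, 1 to 4 Spp1 UMIs were found in 14.9% of rest cells (interval 13.8 to 16.1), 18.7% of tenocytes (13.3 to 25.1) and 12.3% of mural cells (6.88 to 19.7), at median depths of 7071.5, 6921 and 4059 UMIs. The pooled level in cells under 5 UMIs was 27.6 CPM in rest cells (25.6 to 29.7), 42.5 CPM in tenocytes (31.9 to 55.5) and 25.2 CPM in mural cells (13.8 to 42.2). The rest and mural values overlapped, and the tenocyte interval began above that of rest cells. Whether these low counts came from free RNA was not tested. A share of cells at 1 to 4 UMIs is not read here as expression.

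The low counts also followed depth. Among day 4 rest cells under 5 UMIs, those with 1 to 4 were 10.2%, 13.8%, 16.8% and 26.2% from the shallowest to the deepest quartile, and their pooled level was 32.9, 27.5, 26.1 and 26.9 CPM. Per UMI sequenced, low counts were thus nearly even over depth. Cells with at least 5 UMIs were 1.16%, 1.36%, 4.73% and 24.2% of the 4 quartiles. At 2500 UMIs per cell, those with at least 2 were 1.57%, 1.57%, 5.04% and 20.7%, so cells rich in Spp1 were gathered among those of high RNA content, and thinning did not level this.

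Cells under 5 UMIs had 0.274, 1.89, 7.64, 27.6 and 1.29 CPM of Spp1 among rest cells of the quiescent, day 1, day 2, day 4 and day 14 libraries. This low level was highest in the library with the highest Spp1 total. It made little of the whole, since cells with at least 5 UMIs held 98.9% of the day 4 Spp1 UMIs.

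**Figure D3:**
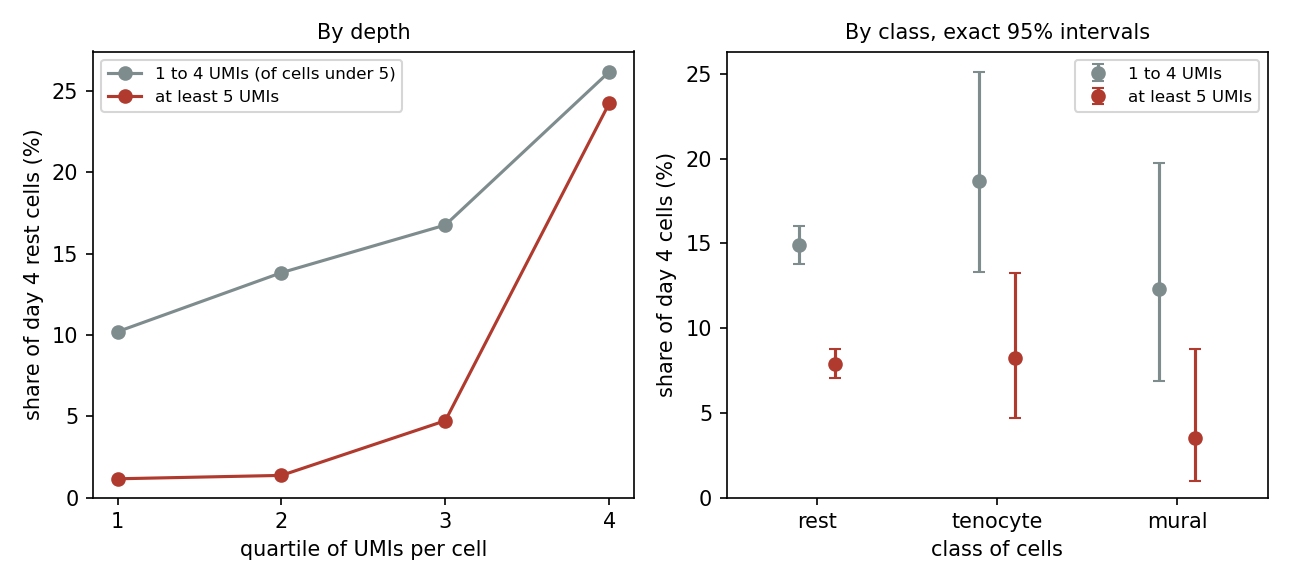
Left, share of day 4 rest cells (percent) by quartile of UMIs per cell, for 1 to 4 Spp1 UMIs (of cells under 5) and for at least 5. Right, the same 2 groups of cells as shares of each day 4 class, with exact 95% intervals. Low counts are 10.2% of the shallowest and 26.2% of the deepest quartile and their intervals overlap over the classes, while cells with at least 5 are 24.2% of the deepest quartile.

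Transcripts of cells outside the sort were low. Mylpf, a myosin light chain of muscle fibres, was in 8.29% of rest, 7.69% of tenocyte and 2.63% of mural cells at day 4, with at most 11 UMIs in a cell. The 16 macrophage genes summed to 35.7 CPM in the 300 rest cells with at least 5 Spp1 UMIs and 62.3 CPM in the 2943 with none. Without Gpnmb, which had 8.50 CPM and 35.2 CPM, the other 15 summed to 27.2 CPM (interval 22.4 to 32.7) and 27.1 CPM (24.9 to 29.4). Lyz2, the lysozyme of myeloid cells, was in 12% of the 300 cells and 3.87% of cells with none, at 11.2 CPM and 6.64 CPM. Of single genes of that list, Ptprc had 0 UMIs in those 300 cells, Tyrobp 4 and Csf1r 3. In cells with none, 5 to 49 and 50 or more Spp1 UMIs, Tyrobp was at 1.05, 0.533 and 1.34 CPM. Csf1r was at 0.859, 0.533 and 0.893 CPM in the same order, and Ptprc at 0.143 CPM in cells with none. A UMI of the 15 genes other than Gpnmb was in 26% of the 300 cells and 13.7% of cells with none, which were shallower. At day 4, 3 rest cells had at least 5 UMIs of the macrophage genes other than Gpnmb, Cd14 and Cd74, and they held at most 1 Spp1 UMI. Genes of neutrophils, endothelium, muscle fibres and red cells were all under 20 CPM in both sets. tdTomato, the lineage label, stood at 1024 CPM in the 300 cells and 932 CPM in cells with none.

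Muscle precursor genes were also measured, since myoblasts can be Spp1 positive. At day 4, 12 rest cells had at least 3 UMIs of Pax7, Myf5, Myod1, Myog, Chrna1 and Cdh15, and they held 57 of the 65125 Spp1 UMIs. Myog, a regulator of muscle differentiation, summed to 126 UMIs in the 300 cells, of which 123 were in 1 cell, and Des, the intermediate filament desmin, was higher in them, at 78.7 CPM against 20.4 CPM (2.50-fold weighted). These were the 2 of 7 myogenic genes at 20 CPM or more, and Des was past the limit both ways. The day 4 Spp1 level without the myogenic cells was 2173 CPM, against 2167 CPM with them.

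The day 4 rest cells were then split by Spp1 itself, into 300 cells with at least 5 UMIs and 2943 with none. The 300 cells had less of resting progenitor transcripts such as Pi16 and Clec3b and more of Timp1 and of the transcripts of mitosis. The split is within 1 library, so it describes these cells and has no replicate. The median depth was 13121 UMIs in the 300 cells and 6496 in the cells with none, and ratios are therefore also given with the cells without Spp1 weighted to the depths of the 300. Of 5599 genes measured at 20 CPM or more in either set, 233 were counted as higher (4.16%) and 338 as lower (6.04%). With the depth weights the counts were 86 higher (1.58%) and 137 lower (2.51%) of 5456, and 81 and 122 genes were counted both ways.

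Named below are the 12 genes of highest and the 12 of lowest ratio counted both ways, with at least 50 CPM. Timp1, an inhibitor of metalloproteinases, had 3113 CPM in cells with at least 5 Spp1 UMIs and 517 CPM in cells with none, a ratio of 6.02 (interval 5.86 to 6.17) and of 2.86 with depth weights. It was detected in 99.7% and 64.2% of the cells. Ddit4l, an inhibitor of mTOR signalling, had 297 CPM and 38.5 CPM in the same order, a ratio of 7.70 (4.68 weighted). Both were broad differences, in which no cell held more than 2.40% of the UMIs of the 300 cells.

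Serpina3g, a protease inhibitor, had 91.6 CPM in cells with at least 5 Spp1 UMIs and 2.72 CPM in cells with none, a ratio of 33.7 (11.4 weighted), and was in 32.3% against 1.05% of cells. The collagenase Mmp13 had 201 CPM and 22.6 CPM, a ratio of 8.88 (11.4 weighted). The gelatinase Mmp9 had 61.5 CPM and 9.64 CPM, a ratio of 6.38 (4.98 weighted). The chemokine Cxcl5 had a ratio of 7.44 (4.70 weighted). These 4 were present in 19.3% to 34.3% of the 300 cells and so in a minority of them.

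The chemokine Ccl5 had a ratio of 27.0 (24.99 weighted), but 420 of its 637 UMIs were in 1 of the 300 cells, and without that cell the ratio was 9.26. The other 5 of the 12 were the mitosis genes Ube2c, Birc5, Plk1, Ccnb1 and Kif22, with ratios of 5.57 to 5.89 and weighted ratios of 2.16 to 2.79. All 13 mitosis genes that reached 20 CPM, of a list of 15, were counted as higher (4.16% of all genes), 10 of them both ways. Their median log2 ratio was 2.20 against 0.05 over all genes tested (1.17 against -0.01 weighted). Without cells holding at least 2 mitosis UMIs, which left 145 cells with at least 5 Spp1 UMIs, the log2 ratio was -0.46 for Ube2c, -0.52 for Ccnb1, 0.19 for Birc5, 1.02 for Kif22 and 1.20 for Plk1. Taking out cells by these transcripts lowers their level by construction.

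Genes lower in the Spp1 cells were led by those of the resting, adventitial-type progenitor. Pi16, a marker of such cells, had 87.5 CPM in cells with at least 5 Spp1 UMIs and 2610 CPM in cells with none, 29.8-fold lower (11.2-fold weighted). Clec3b, which encodes tetranectin, had 119 CPM and 2591 CPM, 21.7-fold lower (9.08-fold weighted). Dpp4, which encodes the surface peptidase CD26, was 15.5-fold lower (5.65-fold weighted), and Igfbp6, a binder of insulin-like growth factor 2, 12.4-fold lower (5.50-fold weighted). Ackr3, a scavenging chemokine receptor, was 34.1-fold lower (14.6-fold weighted) at 5.35 CPM and 182 CPM.

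The other 7 of the 12 were Myoc, Mustn1, Tnxb, Lims2, Nov, Scara5 and Penk. Each was detected in 3.33% to 14.0% of the 300 cells, against 20.999% to 71.6% of cells with no Spp1. Of the 14 resting progenitor genes listed, 7 were counted as lower (6.04% of all genes) and 1 as higher (4.16%). Both ways 6 were lower, and the median log2 ratio of the 14 was -1.17 (-0.98 weighted). Gsn, an actin-severing protein, was 10.4-fold lower (3.70-fold weighted) and Cd34 8.24-fold lower (4.74-fold weighted). The higher one was Sfrp2, a secreted Wnt modulator, at 151 CPM and 58.1 CPM, which was not past the limit with depth weights (1.52-fold). Pdgfra, a general progenitor marker, was close in both, at 149 CPM and 197 CPM.

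**Figure D4:**
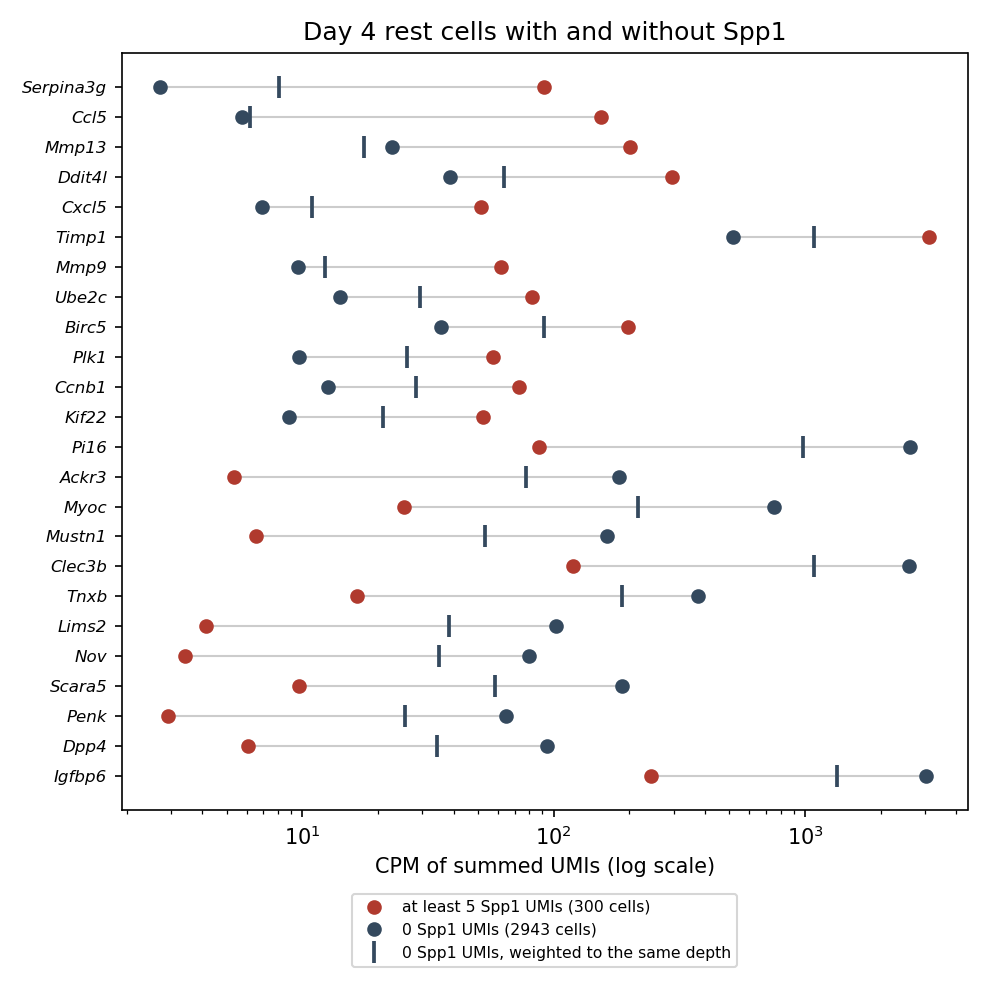
CPM (log axis) of the 12 genes of highest and 12 of lowest ratio in day 4 rest cells with at least 5 Spp1 UMIs (red), in those with none (dark), and in those with none weighted to the same depths (bars). Weighting narrows most gaps and turns none round; Pi16 keeps 87.5 against 984 CPM.

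Most matrix and myofibroblast genes that were higher in the plain ratio were not higher with depth weights. Of 24 such genes, 7 were counted as higher (4.16% of all genes) and 0 as lower (6.04%). Only Timp1 was higher both ways, and the median log2 ratio was 0.46 plain and -0.19 weighted. Tnc, tenascin C, had 524 CPM in cells with at least 5 Spp1 UMIs and 130 CPM in cells with none, with a ratio of 4.04 plain and 1.47 weighted. Acta2, smooth muscle actin, had 617 CPM and 173 CPM, with ratios of 3.56 and 1.23. Postn, periostin, had 2762 CPM and 2655 CPM, with ratios of 1.04 and 0.625. The main collagen chain Col1a1 had ratios of 1.45 and 1.18. In the day 2 split, of 22 genes of this list measured, 4 were higher (1.34% of all genes) and 2 lower (2.86%). Both ways 2 were higher and 1 lower there.

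Over 4 steps of Spp1 content the change was not gradual for Pi16, Clec3b and Cd34, which were strongly lower in the split. Pi16 was at 2610, 1730, 84.3 and 90.2 CPM in day 4 rest cells with 0, 1 to 4, 5 to 49 and 50 or more Spp1 UMIs. Clec3b was at 2591, 1833, 133 and 108 CPM, and Cd34 at 1037, 751, 167 and 91.1 CPM. For these genes, cells with 1 to 4 UMIs thus lay closer to those with none than to those with 5 to 49. Cells with 5 to 49 lay closer to those with 50 or more than to those with 1 to 4. Other genes had no drop of that size: Ly6a was at 2795, 2428, 1489 and 1582 CPM, and Hsd11b1 at 103, 67.3, 40.5 and 33.0 CPM. Timp1 differed at every step, at 517, 841, 1979 and 4061 CPM, and so did Serpina3g at 2.72, 9.01, 58.7 and 119 CPM. Postn had its highest value, 3597 CPM, in cells with 5 to 49 Spp1 UMIs and 2063 CPM in those with 50 or more. Median depth also differed over the 4 steps, at 6496, 8130, 11580.5 and 14229.5 UMIs.

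**Figure D5:**
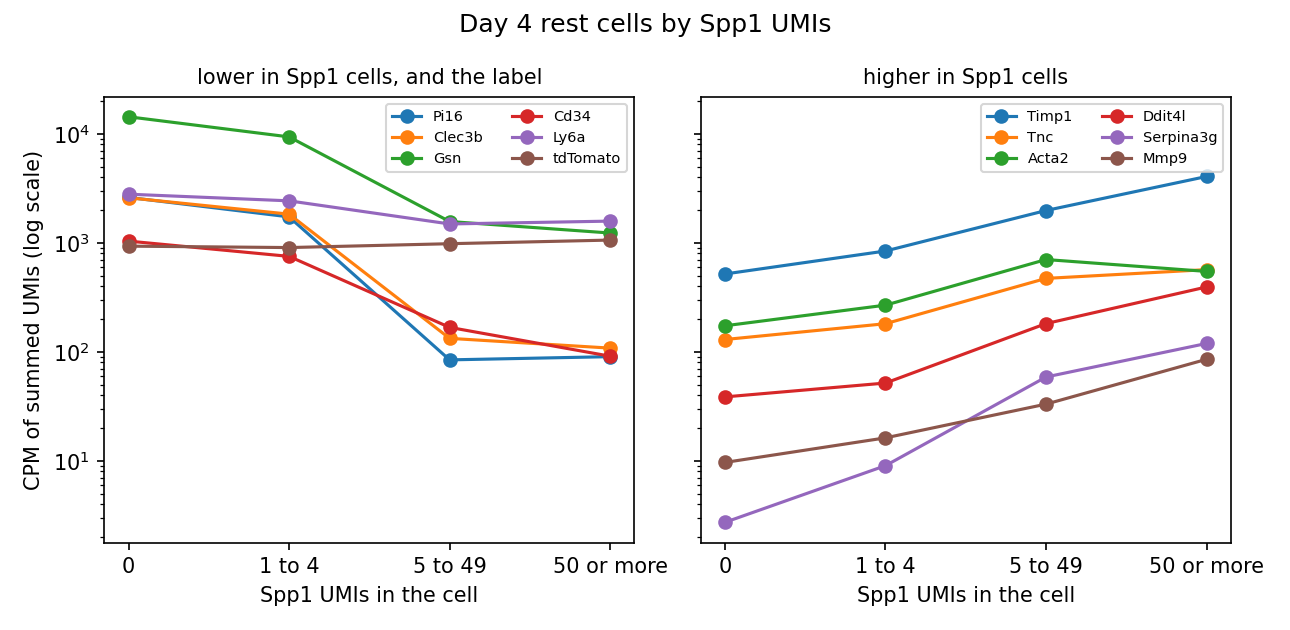
CPM (log axis) of 12 genes in day 4 rest cells with 0, 1 to 4, 5 to 49 and 50 or more Spp1 UMIs. Pi16, Clec3b, Gsn and Cd34 drop between 1 to 4 and 5 to 49 UMIs, Timp1 and Serpina3g climb at each step, and tdTomato stays between 904 and 1060 CPM.

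Read the other way, at 2500 UMIs per cell, day 4 rest cells chosen by a second gene differed in how many held at least 2 Spp1 UMIs. Among cells with at least 5 UMIs of Pi16 and Clec3b it was 0.590% (interval 0.305 to 1.03), against 15.3% (13.6 to 17.1) of the others. Among those with at least 5 Timp1 UMIs it was 47.3% (41.5 to 53.2), against 3.88% (3.26 to 4.58). These genes were the extremes of the Spp1 split of the same cells, so the shares restate that split per cell. Median depth before thinning also differed, at 5747 UMIs in the Pi16 and Clec3b cells and 9319.5 in the others. For the Timp1 limit it was 13843 and 6878 UMIs.

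Mitotic cells, with at least 2 UMIs of the mitosis list, included 32.0% with at least 2 Spp1 UMIs, against 5.57% of the others. Mitosis genes were also among the extremes of the Spp1 split, so this share restates that split too. Rest cells with at least 2 Acta2 UMIs included 24.7%, against 5.96%. Those with at least 10 UMIs of Postn and Cthrc1, a secreted glycoprotein of injury fibroblasts, included 11.1%, against 5.89%. Their summed Spp1 at that depth was lower, at 904 CPM against 1230 CPM, so this pair gave opposite orders by share and by level. Rest cells with at least 20 UMIs of interferon genes included 9.003% (6.07 to 12.7), against 7.16% (6.32 to 8.07), and these intervals overlap. Thinning did not match the compared sets for RNA content. Median depth before it was 11687 UMIs in mitotic cells and 6918.5 in the others. It was 11975 and 6870 for the Acta2 limit, 9981 and 6133.5 for Postn and Cthrc1, and 7508 and 7094.5 for interferon genes.

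The same split was made at day 2 with 138 cells with at least 5 Spp1 UMIs and 2129 with none, and gave fewer genes, 72 higher (1.34%) and 153 lower (2.86%). With depth weights it gave 51 higher (0.972%) and 60 lower (1.14%). Of the genes counted both ways, 9 of those higher were shared, 11.1% of the 81 at day 4 and 20.5% of the 44 at day 2. Of those lower, 34 were shared, 27.9% of the 122 at day 4 and 56.7% of the 60 at day 2. Of the day 4 genes, 57 of the 81 and 110 of the 122 reached 20 CPM in the day 2 split and so could be shared. The 2 splits come from separate libraries.

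Pi16 at day 2 was at 19.4 CPM in cells with at least 5 Spp1 UMIs and 675 CPM in cells with none, 34.7-fold lower (11.3-fold weighted). Timp1 was at 3424 CPM and 1462 CPM, a ratio of 2.34 (2.10 weighted). None of the 15 mitosis genes was counted as higher or lower at day 2, where their median log2 ratio was 0.53 (0.12 weighted). Of 14 chemokine and cytokine genes measured at day 2, 5 were counted as higher, where 1.34% of all genes were, and 2 of them also with depth weights (0.972%). The 2 were the cytokine Il6 at 732 CPM and 287 CPM and the chemokine Cxcl14 at 293 CPM and 123 CPM. Ccl2, which draws monocytes, had 2903 CPM and 1365 CPM, a ratio of 2.13 that was 1.62 weighted. At day 4 Ccl2 had 228 CPM in cells with at least 5 Spp1 UMIs and 296 CPM in cells with none. The chemokine and cytokine list does not hold Ccl5. Of its 13 genes measured at day 4, Cxcl5 was higher (4.16% of all genes) and 4 were lower (6.04%). Ccl11, an eosinophil attractant, was 4.15-fold lower (2.80-fold weighted), Ccl8 3.75-fold (3.15-fold weighted) and Cxcl13, a B cell attractant, 31.0-fold (23.0-fold weighted). Whether the splits differ between days was not tested.

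At day 1 only 30 rest cells had at least 5 Spp1 UMIs, against 4454 with none. There 195 genes were counted as higher (3.68%) and 163 as lower (3.07%), and with depth weights 220 (4.15%) and 161 (3.04%), values that rest on 347656 UMIs in the 30 cells. Pi16 was at 164 CPM in those cells and 395 CPM in the others, and Timp1 at 5934 CPM and 4677 CPM. Of the day 4 genes counted both ways, 7 higher ones and 21 lower ones were shared with day 1, which is 8.64% of 81 and 17.2% of 122, and 4 of the lower ones were counted as higher at day 1. Of the 81 and the 122, 21 and 91 reached 20 CPM in the day 1 split and so could be shared.

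The osteopontin receptors were measured in the same rest cells. Cd44, its non-integrin receptor, was at 43.6, 174, 170, 81.6 and 37.3 CPM in the quiescent, day 1, day 2, day 4 and day 14 libraries. Itga5, the alpha chain of the fibronectin receptor, was at 39.7, 133, 93.4, 65.4 and 42.9 CPM. Both were therefore highest at day 1, before the Spp1 peak. Itgb5 was 4.04-fold, Itgb3 3.19-fold and Itga9 4.24-fold lower at day 1 than in the quiescent library. They are chains of integrins that bind osteopontin. Itgav was at 53.2, 44.4, 45.9, 62.1 and 43.8 CPM from quiescent to day 14, and Itgb1 at 186, 131, 109, 165 and 162 CPM. Neither was counted as higher or lower on any day.

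Of the 7 receptor genes measured at 20 CPM or more, 2 were counted as higher and 3 as lower at day 1. Of all genes, 15.5% were higher and 24.3% lower there. Day 2 gave the same receptor counts, beside 11.3% of all genes higher and 17.4% lower. At day 4 0 were higher (6.34% of all genes) and 1 lower, Itga9 (9.92%). At day 14 none was counted either way (1.04% of all genes higher and 0.643% lower). The median log2 ratio of the receptors was -0.50 at day 1, against -0.15 over all genes. It was -0.76 at day 2, against -0.03, and -0.09 at day 4, against 0.02. Inside day 4, 0 of 5 receptors differed past the limit between cells with at least 5 and with 0 Spp1 UMIs. Of all genes, 4.16% were higher and 6.04% lower in that split. Cd44 had 78.5 CPM and 77.9 CPM there (0.681-fold weighted), and Itgb1, the beta chain of many integrins, 169 CPM and 162 CPM.

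Spp1 belongs to a family of integrin-binding glycoproteins of bone and tooth matrix, whose genes lie near each other in the genome. Mepe and Dspp had 0 UMIs in rest cells of all 5 libraries, Ibsp had 0 to 24 and Dmp1 3 to 55. Of 4 bone and cartilage genes measured at 20 CPM in the day 4 split, Runx2 was higher and Comp, a cartilage matrix protein, lower. Of all genes, 4.16% were higher and 6.04% lower there, and 0 of the 4 were past the limit both ways. In the day 2 split 3 of 4 were higher (1.34% of all genes), 2 of them also with depth weights (0.972%), and 0 lower. Their median log2 ratio at day 2 was 0.99 (1.11 weighted). Ibsp and Bglap had 0 UMIs in the 300 day 4 cells, which allows up to 0.729 CPM. Sp7, a factor needed for osteoblasts, was at 0.243 CPM against 0.286 CPM in cells with none.

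Among 11 enzymes known to act on osteopontin, 7 reached 20 CPM in the day 4 split. Of these, 2 were higher (4.16% of all genes) and 2 lower (6.04%). The higher ones were Mmp9, given above, and the transglutaminase Tgm2 at 126 CPM in cells with at least 5 Spp1 UMIs and 34.2 CPM in cells with none, a ratio of 3.68 (3.37 weighted). The lower ones were the stromelysin Mmp3 at 81.4 CPM and 208 CPM, 2.56-fold lower (2.51-fold weighted), and the gelatinase Mmp2 at 259 CPM and 662 CPM, 2.56-fold lower (1.98-fold weighted). Over time Mmp3 was at 39.0, 829, 155, 197 and 63.8 CPM from quiescent to day 14, with its highest value at day 1.

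Of 16 transcription factors listed as known or candidate regulators of Spp1, Runx1, Runx2 and Hif1a ran in the same order as Spp1 from quiescent to day 4. Runx1, a factor of blood and mesenchymal development, was at 7.25, 29.5, 35.9, 60.1 and 16.8 CPM from quiescent to day 14. Runx2, the master factor of osteoblasts, was at 6.16, 9.33, 19.4, 27.6 and 6.59 CPM. Hif1a, the hypoxia factor, was at 44.6, 80.2, 89.6, 97.3 and 50.2 CPM. At day 4 against quiescent, 3 of the 12 factors measured at 20 CPM were higher, the same 3 (6.34% of all genes were higher), and 2 lower, Jun and Junb (9.92% lower). In the day 4 split Runx2 alone of 11 factors measured was counted as higher, where 4.16% of all genes were. It had 53.2 CPM and 21.96 CPM, a ratio of 2.42 (1.67 weighted), and 0 factors were past the limit both ways. Runx1 had 101 CPM in cells with at least 5 Spp1 UMIs and 50.7 CPM in cells with none, with a ratio just under 2 (1.22 weighted).

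The genes whose level was most like that of Spp1 over the 15 library and class levels were ranked by Pearson's r of log2(CPM + 1). The 15 points share 5 libraries, and the pattern is mainly that of time after injury. Among 4823 genes with at least 50 CPM in any of the 15, Bgn, the matrix proteoglycan biglycan, had the highest r at 0.91. The next were Tceal8, Loxl3 (a lysyl oxidase), Efemp2 (fibulin-4), Copb2, Spcs1, Spc24 and Cope, with r of 0.86 to 0.89. Copb2 and Cope are parts of the vesicle coat COPI, Spcs1 of the signal peptidase, and Spc24 of the kinetochore. Bgn spanned 351 to 5622 CPM, with tenocytes highest at day 4 and mural cells lowest at day 14, a far smaller range than that of Spp1.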

How the data were processed

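Cells sorted from whole hindlimb muscle were captured with 10X Chromium 3' v2 chemistry, per the labels' protocols. The authors deposited raw UMI counts per gene and barcode for 5 libraries, 1 for each time. The submitters' processing notes name Cell Ranger and mm10. Its version and how barcodes were called as cells were not given in the sources used here. Library totals ranged from 8043771 to 44552329 UMIs.

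Spp1, the gates and the 17 gene lists were chosen with earlier results of these data known. Counts were summed over the cells of a class and scaled to CPM. Intervals are exact at 95%: Poisson for CPM, Clopper-Pearson for shares and conditional binomial for ratios. PCR copies were collapsed by UMI upstream, and intervals and floors cover counting error only. A gene at 0 was set to 3 counts for a ratio. Log2 ratios carry a prior of 1 CPM. Depth weights match cells with no Spp1 to deciles of UMIs of the cells with at least 5, and thinning drew 2500 UMIs per cell without replacement. Cells under 2500 UMIs were then left out.

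Genes named are Spp1 and the 12 of highest and 12 of lowest ratio in the day 4 split. Those of the split had at least 50 CPM and were past the limits both ways. Also named are the 8 most like Spp1, the receptors at 20 CPM or more, and up to 4 of each list by size of ratio. Mitochondrial, ribosomal protein, haemoglobin and predicted genes were left out of the ranking. Single genes and cells outside that rule, such as Pdgfra, Postn, Col1a1, Ccl2, Sfrp2, Lyz2 and Myog, were named after their values were seen. No doublet caller was run; an alternative removed the cells of highest UMI count at 0.8% per 1000 barcodes. Other alternatives changed the scaling (edgeR 4.0.16 TMM factors, DESeq2 1.42.0 size factors), the cell filter, the gates, shared barcodes and the split. The count limits were tried on simulated pooled counts that had no spread between cells. That trial cannot show how the limits hold for counts as uneven as these. The thinning was checked on simulated counts for its totals only. Python 3.11.15, numpy 2.4.6, scipy 1.17.1 and R 4.3.3 were used.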

Additional observations from a re-analysis of the deposited data

Results flagged for a closer look

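Rest cells and tenocytes went opposite ways against the quiescent library on 2 days, and neither difference was tested. At day 1 Spp1 was at 22.9 CPM in rest cells, against 0.274 CPM in the quiescent library, while tenocytes had 40.8 CPM at day 1 and 79.1 CPM when quiescent. At day 14 it was at 16.6 CPM in rest cells, against 0.274 CPM, while tenocytes had 5.68 CPM, against 79.1 CPM. The quiescent tenocyte level came from 34 UMIs of 40 in 1 cell, and without the top cell of each set tenocytes had 15.3 CPM at day 1 and 11.96 CPM when quiescent. Without their top cells the day 14 values were 2.65 CPM in rest cells and 2.85 CPM in tenocytes.

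Spp1 was also present in barcodes that the cell filter left out. The 33 left-out day 4 barcodes held 88 Spp1 UMIs (853 CPM) in 11 barcodes, with at most 38 in 1, and 31 of the 33 were left out for their mitochondrial share. The left-out barcodes of the other 4 libraries held 0 Spp1 UMIs, the quiescent library included.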

How the results depend on the processing

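No paired analysis was possible because each group is 1 library. Without the cells with most Spp1 every level is lower by construction. Spp1 in rest cells was highest at day 4, then day 2, then day 1 and then quiescent under all 13 settings, the main one included, and day 14 lay between day 1 and quiescent in 12 of them.

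TMM factors gave 29.4, 260.2 and 2078 CPM at days 1, 2 and 4, and DESeq2 size factors 29.6, 266 and 2086 CPM, with a TMM factor of 0.780 at day 1 and 1.14 in the quiescent library. Gates at 10 UMIs gave 4.89 CPM in quiescent rest cells, 2189 CPM at day 4 and day 4 ratios of 4.13 to tenocytes and 1.71 to mural cells. Gates at 3 UMIs gave 2075 CPM at day 4 and turned the ratio to tenocytes round, to 0.658, and the cause was not tested. The stricter filter on cells gave 2189 CPM at day 4 and a ratio of 1.75 to mural cells, and leaving out shared barcodes 2199 CPM. Without the cells of highest UMI count the levels were 262, 1345 and 1.62 CPM at days 2, 4 and 14, and the day 4 ratios 1.35 to tenocytes and 1.17 to mural cells.

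Without the 1% of cells with most Spp1 the levels were 0, 0.877, 93.5, 826 and 0 CPM from quiescent to day 14. Without the 1 cell with most Spp1, chosen after seeing the data, they were 18.1, 225 and 2075 CPM at days 1, 2 and 4 and 2.65 CPM at day 14, and the day 4 ratios 1.85 and 16.0. Thinning, for levels chosen after seeing the data, gave 25.1, 218 and 1141 CPM at days 1, 2 and 4 and 5.73 CPM at day 14. It gave shares of 1.01%, 6.36% and 14.2% at days 1, 2 and 4, and day 4 ratios of 1.30 to tenocytes and 2.16 to mural cells.

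In the day 4 split, thinning counted 361 genes as higher, the depth weights 86 higher and 137 lower, a minimum of 5 CPM 492 and 663, of 50 CPM 118 and 185, and no minimum 1756 and 1299. Of the 24 genes of highest and lowest ratio, Ube2c (-0.46) and Ccnb1 (-0.52) changed sign without mitotic cells. The other settings, leaving out myogenic cells among them, kept the counts within 1.5 times those reported. Depth limits the quiescent library most, where 3 counts are worth 0.410 CPM in rest cells.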

Other observations

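The 6 cells past both marker gates belong to none of the 3 classes. Of these, 1 day 4 cell held 40 Spp1 UMIs, 1 day 2 cell held 12, and the 4 day 14 cells held 0.

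At day 2, 4 of 8 interferon genes measured at 20 CPM were counted as lower in the cells with at least 5 Spp1 UMIs, where 2.86% of all genes were, and 1 of them also with depth weights (1.14%). Ifit1, an RNA-binding interferon-induced protein, was at 1.17 CPM there and 24.99 CPM in cells with none.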
